A study of Mus musculus with 79 samples.

Results

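The cell division genes are 40 genes that cycling cells use to copy and divide their chromosomes. They were taken by symbol from a list of cell cycle genes, with no threshold on measured values, and all 40 were found among the 31350 genes of the table, each with exactly 1 entry. Each of 79 mice gave the RNA of its right lung for 1 array, and the mice fell into 16 groups with 4 to 6 in each. WT mice were on the C57BL/6J background, and βENaC mice were their littermates that overexpress Scnn1b, the β subunit of the epithelial sodium channel, in the airway epithelium, which gives chronic mucus obstruction and airway inflammation. Mice of both sexes, 5 to 7 weeks old, breathed the mainstream and side-stream smoke of 6 reference cigarettes per day (smoke) or room air in the same kind of chamber (sham), for 1 day or for 5 days in a row. Lungs were taken 4 hours after the last exposure. The 1-day exposures comprised 20 smoke and 20 sham mice, and the 5-day exposures 19 smoke and 20 sham mice.

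A cell that commits to division first licenses its replication origins with Cdc6 and the Mcm helicase, then copies its DNA with Cdc45 and the helicase while Rrm2 and Tyms supply nucleotides. Cyclins E and A drive that step and cyclins A and B with the kinase Cdk1 drive entry into mitosis, where the transcription factor Foxm1 raises many of the late genes. The spindle is then built by motor proteins such as Kif11, chromosomes attach through the kinetochore proteins Ndc80, Nuf2 and Cenpe, the checkpoint kinases Bub1, Bub1b and Ttk hold the cell until attachment is complete, and Cdc20 and Ube2c then start the destruction of cyclin B. Most cells of the adult lung are not dividing, and mice of this age are young adults whose lungs still hold some cycling endothelial, epithelial and blood-derived cells.

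Many cell cycle genes share short promoter motifs, and the promoters of 7 of the 40 genes are shown here as examples for that reason. Of the 7, Ube2c and Mcm6 had no call. Other genes with calls, such as Bub1b, Melk, Mki67 and Cenpe, are not printed. The cell cycle homology region (CHR, letters TTTGAA) and the CCAAT box are known from promoters of late cell cycle genes, where the MuvB complexes and NF-Y bind. E2F sites (searched as TTTGGCGC, TTTCCCGC, TTTCGCGC or TTTGCCGC) are known from genes of the replication step. RefSeq promoter windows on GRCm38.p6, each from 250 bases before to 50 bases after a start, were on hand for 33 of the 40 genes, and Prc1 had 1 window more than the others, which gave 34 windows. The CHR letters, read on both strands, were in 20 of these windows (58.8%, against 17.9% of all 32851 windows), and a CCAAT box was in 25 (73.5%, against 37.4%). Both motifs were in 18 windows (52.9%, against 6.95%). An E2F site was in 5 windows (14.7%, against 2.26%), those of Cdk1, Cdc6, Mcm3, Mcm5 and Mcm6. The last 150 bases before the start of 7 genes are printed 5′ to 3′ on the strand of the gene, all of them upstream of the first annotated base of the gene. Capitals mark the CHR (TTTGAA, or TTCAAA where it lies on the opposite strand), the CCAAT box (CCAAT or ATTGG) and E2F sites, of which the leftmost pair in Mcm6 overlap on opposite strands. Bub1 (chr2:127831860-127832009, minus strand) and Birc5 (chr11:117849087-117849236, plus strand) had calls that held under every setting tried. Cdk1 (chr10:69352913-69353062, minus strand) and Kif11 (chr19:37376232-37376381, plus strand) were higher in βENaC mice, and Cdc20 (chr4:118437344-118437493, minus strand) differed between the sexes. Ube2c (chr2:164769779-164769928, plus strand) had one of the highest coefficients for smoke at both durations, and Mcm6 (chr1:128359706-128359855, minus strand) is a replication gene whose window held E2F sites, as did those of Cdc6, Mcm3 and Mcm5 and not those of the other replication genes on hand, Cdc45, Mcm2, Rrm2, Top2a and Tyms.
Bub1: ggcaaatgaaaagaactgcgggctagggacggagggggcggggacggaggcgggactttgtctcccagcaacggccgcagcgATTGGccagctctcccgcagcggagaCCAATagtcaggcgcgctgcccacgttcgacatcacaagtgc
Birc5: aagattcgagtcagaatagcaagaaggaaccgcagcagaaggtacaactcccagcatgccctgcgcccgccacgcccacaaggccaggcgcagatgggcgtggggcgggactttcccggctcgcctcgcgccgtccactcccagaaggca
Cdk1: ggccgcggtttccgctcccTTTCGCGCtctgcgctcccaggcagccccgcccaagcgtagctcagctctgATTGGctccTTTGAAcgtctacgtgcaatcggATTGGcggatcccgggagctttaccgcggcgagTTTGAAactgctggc
Kif11: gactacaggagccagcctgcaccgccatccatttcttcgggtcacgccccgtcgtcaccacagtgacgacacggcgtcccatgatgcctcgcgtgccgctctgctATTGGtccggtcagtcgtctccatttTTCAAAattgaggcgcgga
Cdc20: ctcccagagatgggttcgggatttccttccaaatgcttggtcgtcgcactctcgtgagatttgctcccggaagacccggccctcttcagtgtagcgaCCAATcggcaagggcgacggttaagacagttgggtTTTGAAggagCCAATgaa
Ube2c: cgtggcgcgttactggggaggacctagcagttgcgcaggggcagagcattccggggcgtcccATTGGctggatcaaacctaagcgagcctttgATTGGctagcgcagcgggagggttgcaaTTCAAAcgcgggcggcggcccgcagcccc
Mcm6: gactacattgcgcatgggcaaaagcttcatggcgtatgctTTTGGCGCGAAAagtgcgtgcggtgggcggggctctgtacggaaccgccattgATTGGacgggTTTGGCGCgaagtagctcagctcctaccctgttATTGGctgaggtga
The printed windows of Cdk1, Kif11, Cdc20 and Ube2c each held CHR letters with a CCAAT box upstream of them. The window of Bub1 held 2 CCAAT boxes and no CHR letters, and that of Birc5 held none of the motifs searched.

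The deposited log2 intensities had medians of 4.44 to 4.55 per array, any pair of arrays correlated at 0.965 to 0.995, and Scnn1b separated the genotypes without overlap (8.98 ± 0.21, SD, n = 40 in WT, and 11.69 ± 0.10, SD, n = 39 in βENaC mice). The source names of 13 WT smoke mice call them βENaC, against their titles, and the titles were used. Of the lists of markers for cells a lung homogenate could hold, 2 were used to choose single mice to leave out. The βENaC smoke female of the 1-day exposures with replicate number 2 had a mean of 6.86 over 11 thymocyte genes against 5.31 in the next mouse, and each of the 11 genes was highest in it. This mouse ranked 4th of 79 for the cell division genes. The WT smoke female of the 1-day exposures with replicate number 5 had the highest erythroid level (7.61 over 14 genes) and ranked 20th. It did not stand alone, since a βENaC smoke female of the 1-day exposures had an erythroid level of 7.29. In those exposures the highest erythroid levels of sham mice and of males were 6.63 and 6.59. Only the WT mouse was set aside for its erythroid level. Where the number of the 40 genes called at 1 day changed without the mouse with the highest thymocyte or the highest erythroid level, it is given with and without that mouse. Intensities of different genes are not compared with each other, since probes differ in brightness. In whole lung, fewer dividing cells and less of these RNAs per cell cannot be told apart.

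The 40 genes moved together from mouse to mouse. For each mouse the genes were centred on their own means over the 79 mice and averaged, and this average ran from -0.53 in a WT sham female of the 1-day exposures (replicate 2), in which 39 of 40 genes lay below their own mean, to 0.83 in a βENaC sham male of the 5-day exposures (replicate 2), in which all 40 lay above it. After removal of the 16 group means, the first principal component held 68.6% of the variance of the 40 genes, with the same sign for all 40. The spread within groups was larger than for most of the array, with a median SD of 0.32 for the 40 genes (0.11 to 0.48) against 0.16 for all genes, and 38 of the 40 lay above that value. Mice of 1 group could differ by more than the group differences described next. The average was 0.74 in one βENaC smoke female of the 1-day exposures (replicate 5) and 0.08 in another (replicate 1), for example.

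**Figure D1:**
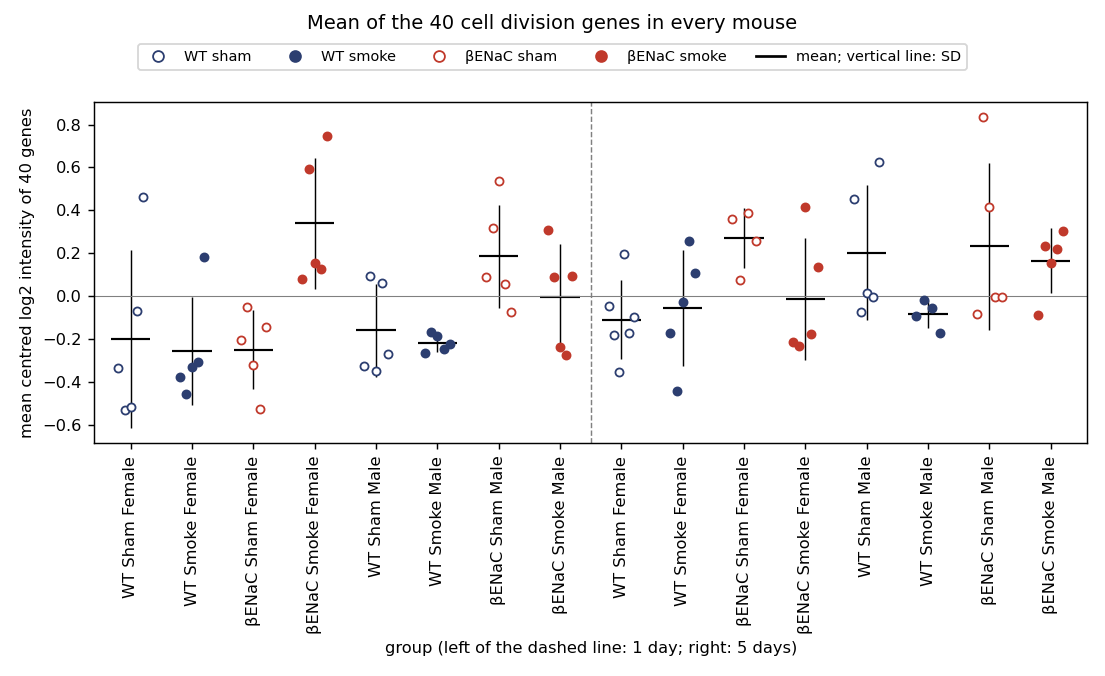
Mean of the 40 cell division genes in each of the 79 mice, as log2 intensity centred per gene on the mean of all mice (y axis), by group (x axis, 1 day left and 5 days right of the dashed line). Points are mice, coloured by genotype and filled for smoke, with a bar at the group mean and a vertical line for the SD. Values ran from -0.53 to 0.83.

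Likeness to Mki67, the nuclear antigen that marks cycling cells, was measured as Pearson's r over the 79 mice after removal of the group means, as a description of these arrays. All 39 other genes had a positive r, with a median of 0.742 against 0.005 for all other genes on the array, and 34 of the 39 were among the 313 genes (1%) most like Mki67. Top2a, the topoisomerase that untangles replicated DNA, had an r of 0.942, followed by the spindle assembly factor Tpx2 (0.908), the spindle midzone protein Prc1, the motor Kif11 (0.902) and Kif20a, a motor of the cleavage stage (0.901). Least alike were the cyclin E gene Ccne1 (0.278) and the replication genes Cdc6 (0.386), Mcm4 (0.400), Tyms (0.401) and Cdc45 (0.456). Other genes of those steps lay higher, such as Ccne2 (0.713), Mcm5 (0.699) and Mcm2 (0.693). These lay above the mitotic genes Aurka (0.630) and Ccnb1 (0.582). Apart from Top2a, the top of this order held spindle and cytokinesis genes, and the bottom held genes of the earlier steps. Cdc6 had 1 mouse far above the next (5.37 against 4.53), and Mcm4 had the smallest SD within groups (0.11). The means of Ccne1 (3.74), Cdc6 (3.73) and Cdc45 (4.39) lay below the array medians of 4.44 to 4.55. So did those of Birc5 (3.82, r of 0.742) and Foxm1 (3.88, r of 0.700). The part of signal and spread in this order was not tested. Of the genes outside the 40, the most like Mki67 were Ect2 (0.896), which organises the cleavage furrow, the histone genes H2ax (0.866) and H2ac10 (0.848), the spindle gene Dlgap5 (0.858) and the cytoskeletal gene Ckap2 (0.832). The mice share tissue, platform and normalization, so these values carry no test.

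**Figure D2:**
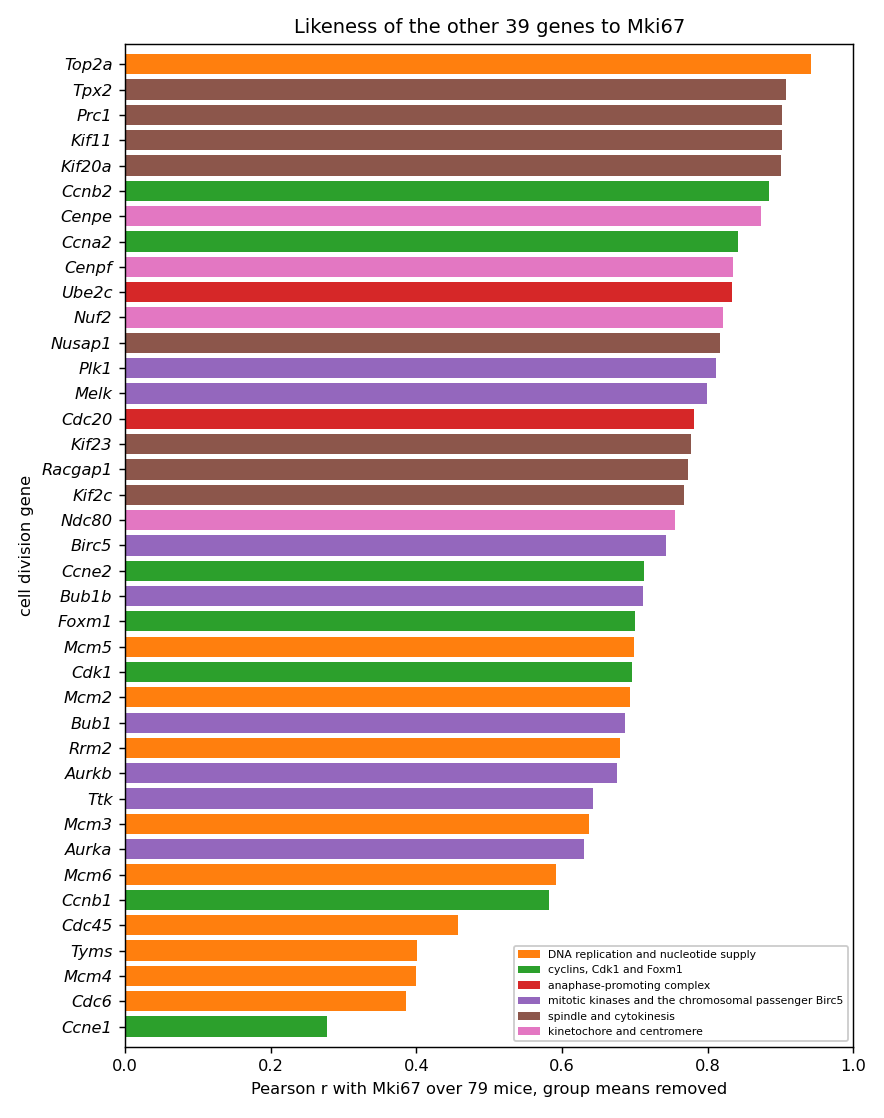
Pearson's r of each of the other 39 cell division genes with Mki67 over 79 mice after removal of 16 group means (x axis), genes in order of r (y axis), coloured by role. Top2a was highest at 0.942 and Ccne1 lowest at 0.278.

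Genotype gave the largest number of calls. At 1 day, 39 of the 40 genes had a higher mean in βENaC than in WT mice, with a median difference of 0.28 on the log2 scale, against 0.0024 over all genes. In limma's test, adjusted over all genes, 9 of the 40 rose in βENaC mice and 0 fell, while 3.58% of all genes rose. The ordinary linear model, which does not share the spread between genes, called 2 of the 9, Bub1b and Birc5. Of the 9 called by limma, 6 also exceeded the 1.3-fold threshold (0.379 on the log2 scale), against 1.13% of all genes in that direction. At an unadjusted p below 0.05 there were 30 of the 40, against 17.4% of all genes. The 9 were Mki67, Cdk1, Bub1b, Birc5, Kif11, Kif2c, Cenpe, Rrm2 and Melk, and they came from every role but the anaphase-promoting complex. Of the 40, Ccne1 alone had a coefficient below 0 (-0.01).

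Mki67 ranged in WT mice of the 1-day exposures from 5.87 to 7.98 with a median of 6.77, and in βENaC mice from 6.01 to 8.38 with a median of 7.49. The genotypes overlapped over most of their range, with 18 of 20 βENaC mice above the WT median. The coefficient of Mki67 was 0.52 (SE 0.16, 1.43-fold, limma adjusted p = 0.0452), the largest among the 40 genes.

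The spindle checkpoint gene Bub1b had the smallest adjusted p at both durations. In the 1-day exposures its log2 intensity was 4.69 to 5.80 (median 5.10) in WT and 4.98 to 6.13 (median 5.49) in βENaC mice. The ranges overlapped, and 16 of 20 βENaC mice lay above the WT median. Its coefficient was 0.41 (SE 0.09, limma adjusted p = 0.00297). Birc5, the survivin subunit of the chromosomal passenger complex that corrects faulty attachments, ran from 3.04 to 4.09 (median 3.56) in WT and from 3.11 to 4.83 (median 4.04) in βENaC mice, with a coefficient of 0.40 (SE 0.11, limma adjusted p = 0.0157). The lowest mice of both genotypes lay at about the same level for Birc5, while the medians and the highest mice lay apart. The mean of Birc5 over all mice, 3.82, lay below the array medians of 4.44 to 4.55, and its signal over background was not analysed. Among the genes called at 1 day, Cdk1, Kif2c, Rrm2 and Melk also had means below these medians. Mki67, Bub1b, Kif11 and Cenpe had means above them. Melk, a mitotic kinase, rose by 0.32 (SE 0.10, limma adjusted p = 0.0407), and 19 of 20 βENaC mice lay above the WT median. The other genes of this group (Bub1, Aurka, Aurkb, Plk1, Ttk) had coefficients of 0.19 to 0.35 and adjusted p of 0.0572 or more.

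Among the motor and spindle genes, Kif11, which pushes the spindle poles apart, had a range of 4.64 to 6.25 (median 5.33) in WT and of 5.10 to 6.68 (median 5.72) in βENaC mice at 1 day, which gave a coefficient of 0.41 (SE 0.12, limma adjusted p = 0.0421). Kif2c, which depolymerises microtubules at the centromere, rose by 0.38 (SE 0.12, limma adjusted p = 0.0441). Prc1 had one of the 5 largest coefficients of the 40 genes, 0.46, and did not pass (SE 0.16, limma adjusted p = 0.0837). At the kinetochore, the motor Cenpe rose by 0.39 (SE 0.12, limma adjusted p = 0.0429), from a WT range of 4.17 to 5.54 (median 4.61) to 4.45 to 5.93 (median 5.07). Nuf2 had a coefficient of 0.48 (SE 0.16, limma adjusted p = 0.0569) and its partner Ndc80 one of 0.36 (limma adjusted p = 0.116), neither of which passed.

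Cdk1, the kinase that triggers mitosis, ran from 3.41 to 4.70 (median 3.95) in WT and from 3.86 to 5.08 (median 4.32) in βENaC mice at 1 day and rose by 0.42 (SE 0.13, limma adjusted p = 0.0409). The cyclins that partner it had smaller coefficients, 0.26 for Ccna2, 0.23 for Ccnb1 and 0.32 for Ccnb2, with adjusted p of 0.0872 or more. In the replication group, Rrm2, a subunit of ribonucleotide reductase, was the 1 gene of 10 that rose (0.36, SE 0.11, limma adjusted p = 0.0443). Its highest βENaC mouse lay at 5.63 against 4.70 for the highest WT mouse, and the medians were 4.35 and 4.07. Top2a had a coefficient of 0.42 that did not pass (SE 0.16, limma adjusted p = 0.12), and the 5 Mcm genes had coefficients of 0.08 to 0.25. The median over the replication group was 0.14, against 0.31 for the mitotic kinases with Birc5, 0.33 for spindle and cytokinesis and 0.37 for kinetochore and centromere. These medians were not scaled by the spread of each gene. The SD within groups was 0.11 for Mcm4, 0.14 for Mcm6 and 0.18 for Mcm3, but 0.44 for the replication gene Top2a. It was 0.46 for Nuf2 and 0.48 for Prc1. Differences between roles were not tested.

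**Figure D3:**
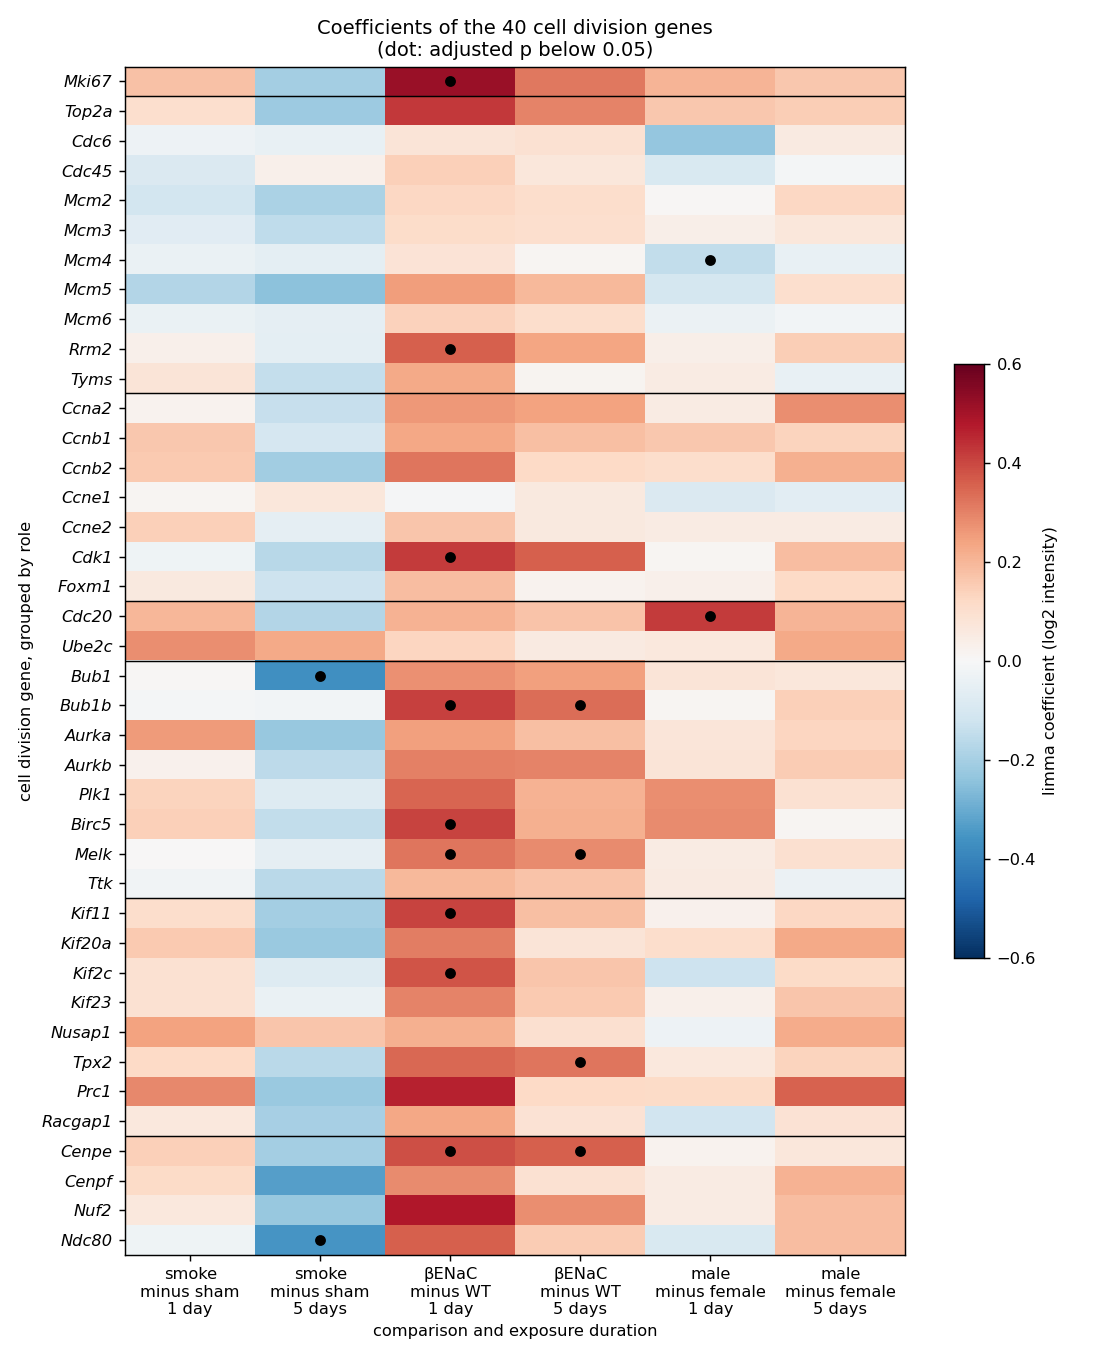
limma coefficients on the log2 scale (colour) for the 40 cell division genes (y axis, grouped by role) in the 6 comparisons (x axis: smoke minus sham, βENaC minus WT, male minus female, at 1 and 5 days). A dot marks an adjusted p below 0.05. The genotype columns are positive for 39 genes at 1 day and 40 at 5 days and hold 9 and 4 dots.

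At 5 days all 40 genes had a higher mean in βENaC mice, with a median difference of 0.17 against -0.01 over all genes, and 4 of them rose in limma's test, which called 4.85% of all genes higher in βENaC mice. None of the 4 exceeded 1.3-fold (0 of 40, against 1.87% of all genes upward), and 16 of the 40 had an unadjusted p below 0.05, against 22.5% of all genes. Bub1b ran from 4.80 to 5.58 (median 5.28) in WT and from 5.25 to 6.06 (median 5.55) in βENaC mice, with 17 of 19 βENaC mice above the WT median. Its coefficient was 0.33 (SE 0.08, limma adjusted p = 0.00236). Melk rose by 0.28 (SE 0.08, adjusted p = 0.0193), Cenpe by 0.36 (SE 0.12, adjusted p = 0.0446) and Tpx2 by 0.32 (SE 0.11, adjusted p = 0.0458), and the first 2 of these had also risen at 1 day. Cenpe and Tpx2 passed neither in the ordinary linear model nor with array weights, and they lost their calls without any 1 of 23 and 24 of the 39 mice.

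Cdk1 had the largest coefficient at 5 days, 0.36, but also a wide spread and did not pass (SE 0.16, limma adjusted p = 0.146). It ranged from 3.39 to 5.28 (median 4.14) in WT and from 3.51 to 5.61 (median 4.72) in βENaC mice. Mki67 lay between 6.37 and 8.18 (median 7.29) in WT and between 6.94 and 8.34 (median 7.65) in βENaC mice, with a coefficient of 0.32 (SE 0.13, limma adjusted p = 0.106). The smallest coefficients belonged to Mcm4 and Tyms, the thymidylate synthase, at 0.01 each. The genotype difference was smaller at 5 days than at 1 day for 38 of the 40 genes (median change -0.07), but in limma's test of genotype by duration 0 of 40 passed (0 at an unadjusted p below 0.05, smallest adjusted p = 0.819), and 0% of all genes passed.

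**Figure D4:**
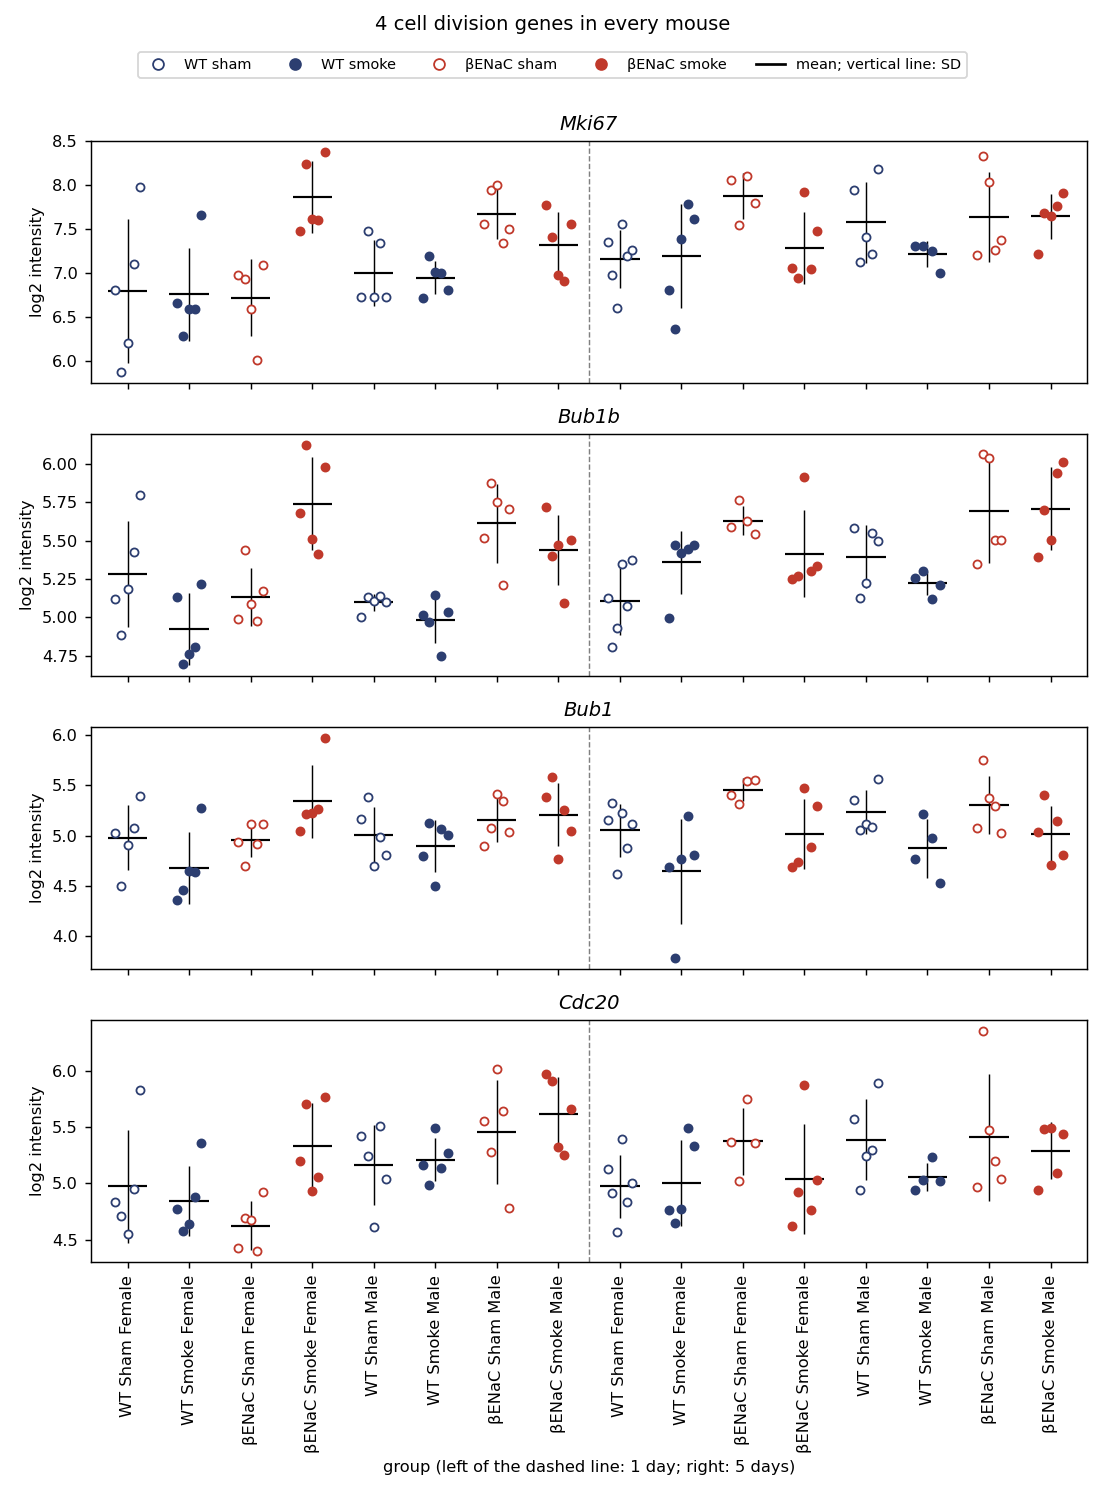
log2 intensity (y axis) of 4 cell division genes in each of the 79 mice, by group (x axis, 1 day left and 5 days right of the dashed line), with the bar at the group mean. Filled points are smoke and open points sham mice, and vertical lines are SDs. The panels show Mki67, Bub1b, Bub1 and Cdc20, and Mki67 ran from 5.87 to 8.38 over all mice.

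The calls for genotype at 1 day depended on single mice. Without the βENaC smoke female that had the highest thymocyte level (replicate 2), 2 of the 40 genes passed, Bub1b (0.37, limma adjusted p = 0.00483) and Birc5 (0.35, limma adjusted p = 0.0243), and 0 exceeded 1.3-fold as well, while the median coefficient was 0.26. An unadjusted p below 0.05 was then found for 28 genes. Mki67 then had a coefficient of 0.47 (limma adjusted p = 0.0737). Without the WT smoke female that had the highest erythroid level (replicate 5), 12 genes passed and 8 exceeded 1.3-fold as well. Bub1b and Birc5 passed whichever of the 40 mice was left out, and Bub1b and Melk did so at 5 days whichever of the 39 mice was left out. Each of the other genes called at 1 day lost its call without any 1 of 21 to 26 of the 40 mice, as their adjusted p of 0.0407 to 0.0452 lay close to the threshold.

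The genotype difference was not even across groups. At 1 day the median over the 40 genes of βENaC minus WT was -0.04 in sham females (13 of 40 positive), 0.36 in sham males (39 positive), 0.64 in smoke females (39 positive) and 0.22 in smoke males (35 positive). At 5 days it was 0.39 in sham females (40 positive), 0.03 in sham males (24 positive), 0.05 in smoke females (26 positive) and 0.24 in smoke males (39 positive). The groups with the larger and smaller medians thus were not the same at both durations. Since the 40 genes rose and fell together within a mouse, these counts reflect few mice, 4 to 6 in each group. The smoke female value at 1 day was 0.58 without the mouse with the highest thymocyte level and 0.79 without the mouse with the highest erythroid level.

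**Figure D5:**
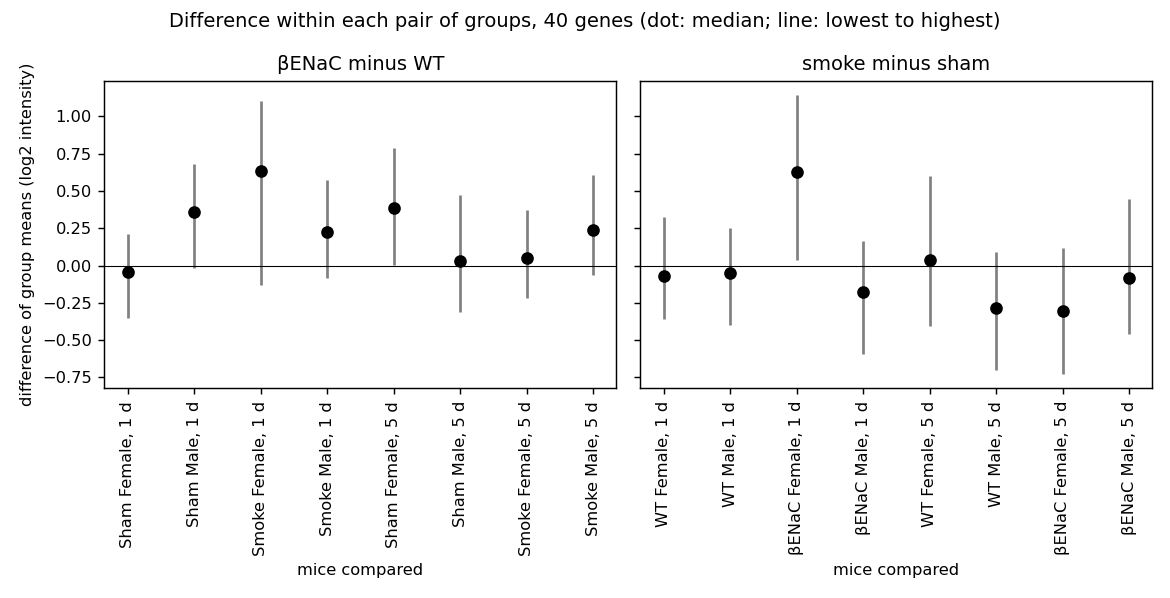
Differences of group means on the log2 scale (y axis) over the 40 cell division genes within each pair of groups (x axis), for βENaC minus WT and for smoke minus sham. Dots are medians and lines run from the lowest to the highest gene. The largest medians are 0.64 for genotype (smoke females, 1 day) and 0.63 for smoke (βENaC females, 1 day).

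Of the cell type lists, those with 3 or more genes called between genotypes at 1 day, where 5.87% of all genes were called in either direction, were alveolar macrophages (4 of 12 genes rose, Mrc1, Marco, Chil3 and Itgax, and 2 fell, Ear1 and Krt79), granulocyte precursors (3 of 9 rose, Camp, Ltf and Chil3, the last held by both lists), fibroblasts (3 of 8 rose, the collagen genes Col1a1, Col1a2 and Col3a1) and endothelial cells (4 of 8 fell, Cdh5, Kdr, Tek and Plvap). Of 7 alveolar type 2 genes, Lamp3 and Slc34a2 rose, and in other lists Fcgr4 and Ahsp rose and Ncr1 and Prdm1 fell. The mean level of the macrophage list ran from 8.18 to 8.79 in WT and from 8.34 to 9.25 in βENaC mice, that of the precursor list from 4.41 to 4.65 and from 4.56 to 4.96, and that of the endothelial list from 10.10 to 10.43 and from 9.79 to 10.35. At 5 days, where 10.2% of all genes were called, 5 of 12 macrophage genes rose and 2 fell, 2 of 9 precursor genes rose, 2 of 8 fibroblast genes fell (Tcf21 and Dcn) and 5 of 8 endothelial genes fell. In the other lists 3 of 7 alveolar type 2 genes rose, 3 of 14 erythroid genes fell and 1 rose, and 1 monocyte gene and 1 plasma cell gene rose. The thymocyte list had 0 of 11 genes called by limma in either genotype comparison, with ranges of 4.36 to 4.91 in WT and 4.17 to 6.86 in βENaC mice at 1 day. The part of these cells in the cell division result was not tested.

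Smoke for 1 day changed none of the 40 genes in limma's test (0 called, against 9.45% of all genes, and 1 at an unadjusted p below 0.05), and the smallest adjusted p was 0.11 for Aurka, the centrosome kinase, with a coefficient of 0.25 (SE 0.10). The ordinary linear model also gave 0. The median coefficient was 0.07, with 29 positive, against 0.01 over all genes, and it was 0.05 without the mouse with the highest thymocyte level and 0.06 without the mouse with the highest erythroid level, with 0 calls in both cases. The largest were those of Prc1 (0.29, SE 0.16, limma adjusted p = 0.299), Ube2c, the ubiquitin-conjugating enzyme of the anaphase-promoting complex (0.28, SE 0.15, adjusted p = 0.289), Nusap1, a spindle microtubule protein (0.24, SE 0.15, adjusted p = 0.372), and Cdc20, the activator of that complex (0.20, SE 0.12, adjusted p = 0.338). Mki67 lay between 5.87 and 8.01 (median 7.03) in sham and between 6.29 and 8.38 (median 7.11) in smoke mice. The exposures shared nearly the whole range of Mki67, and its coefficient was 0.18 (SE 0.16, limma adjusted p = 0.582).

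After 5 days of smoke, 36 of the 40 genes had a coefficient below 0, with a median of -0.15 against -0.0018 over all genes. Of the 40, 2 fell in limma's test, which called 3.37% of all genes lower. No gene of the 40 rose, none exceeded 1.3-fold (0 of 40, against 1.15% of all genes), and 11 had an unadjusted p below 0.05, against 18.2% of all genes. Bub1, the kinase that recruits checkpoint proteins to the kinetochore, ran from 4.61 to 5.76 (median 5.26) in sham and from 3.78 to 5.47 (median 4.81) in smoke mice. The ranges overlapped from 4.61 to 5.47, and 3 of 19 smoke mice lay above the sham median. Its coefficient was -0.37 (SE 0.09, limma adjusted p = 0.0109).

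The lowest Bub1 value, 3.78, belonged to a WT smoke female (replicate 2), in which the average of the 40 genes was -0.44, and without this mouse the coefficient was -0.31 (limma adjusted p = 0.014). Bub1 passed without any 1 of the 39 mice and under each of the 9 other settings. Ndc80, the kinetochore protein that grips microtubules, ran from 5.15 to 6.11 (median 5.62) in sham and from 4.43 to 5.94 (median 5.22) in smoke mice, a coefficient of -0.35 (SE 0.11, limma adjusted p = 0.0459). The same mouse was lowest for Ndc80, and without it the adjusted p was 0.0817. The call of Ndc80 was lost without any 1 of 25 of the 39 mice.

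Other large decreases that did not pass after 5 days were those of the kinetochore protein Cenpf (-0.33, SE 0.13, limma adjusted p = 0.135), the helicase gene Mcm5 (-0.25, SE 0.09, adjusted p = 0.0817) and Nuf2 (-0.23, SE 0.13, adjusted p = 0.368). The highest coefficient was that of Ube2c, 0.23, with a range of 4.72 to 6.49 (median 5.72) in sham and of 5.32 to 6.51 (median 5.98) in smoke mice (SE 0.12, limma adjusted p = 0.316). Ube2c, Nusap1 (0.16), Ccne1 (0.07) and Cdc45 (0.03) were the 4 genes with a positive coefficient. Mki67 had a coefficient of -0.20 (SE 0.12, limma adjusted p = 0.416), with a sham range of 6.61 to 8.34 (median 7.40) and a smoke range of 6.37 to 7.92 (median 7.31). By role, the medians were -0.28 for kinetochore and centromere, -0.18 for spindle and cytokinesis, -0.15 for the mitotic kinases with Birc5 and -0.10 for replication. These medians too were not scaled by the spread of each gene, and differences between roles were not tested.

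The smoke coefficient was lower at 5 days than at 1 day for 37 of the 40 genes, with a median change of -0.19, but limma's test of exposure by duration called 0 of them (5 at an unadjusted p below 0.05, smallest adjusted p = 0.13 for Aurka), against 0.612% of all genes. Of the cell type lists, 7 of 14 erythroid genes rose after 5 days of smoke, all above 1.3-fold, against 3.17% of all genes that rose. In the monocyte list 5 of 8 genes fell, against 3.37% of all genes, as did 3 of 8 fibroblast genes, 2 of 8 endothelial genes (Pecam1 and Tie1) and 2 of 7 alveolar type 2 genes (Abca3 and Lamp3). Of 12 macrophage genes, Lpl rose and Siglecf and Ear2 fell, and of the germinal centre genes Bcl6 rose. The mean level of the erythroid list ran from 5.80 to 6.68 in sham and from 6.24 to 7.09 in smoke mice, that of the monocyte list from 8.13 to 8.64 and from 7.43 to 8.30, and that of the fibroblast list from 9.05 to 9.76 and from 8.52 to 9.49. Their part in the lower cell division genes was not tested.

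Within the groups, the median of smoke minus sham over the 40 genes at 1 day was -0.07 in WT females (10 positive), -0.05 in WT males (18 positive), 0.63 in βENaC females (40 positive) and -0.18 in βENaC males (5 positive). At 5 days it was 0.04, -0.28, -0.31 and -0.08 in the same order, with 25, 1, 3 and 11 positive. The median of the βENaC females exposed for 1 day was thus the largest, and that of the other βENaC females, exposed for 5 days, was below 0. The 1-day value was 0.55 (38 positive) without the mouse with the highest thymocyte level, and that of the WT females was -0.16 (3 positive) without the mouse with the highest erythroid level. Of the βENaC sham females at 1 day, the lowest average of the 40 genes was -0.53 and the highest -0.05. Those of the smoke mice were 0.08 and 0.74. These groups of 5 were looked at because their median difference was the largest, so the gap between them carries no test.

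The tests of these differences called none of the 40 genes. For exposure by sex at 1 day, 39 of 40 had a negative coefficient, with a median of -0.43 against 0.01 over all genes. A negative coefficient means that smoke minus sham was lower in males than in females over both genotypes. Of the 40, 0 passed in limma's test (17 at an unadjusted p below 0.05, smallest adjusted p = 0.457 for Racgap1, a cytokinesis gene), against 0.00638% of all genes. Top2a had the coefficient largest in size, -0.89. Without the mouse with the highest thymocyte level, 11 genes had an unadjusted p below 0.05 and the median was -0.34, and without the mouse with the highest erythroid level the values were 13 and -0.38. For exposure by genotype at 1 day, 39 of 40 were positive with a median of 0.29, and 0 passed (5 unadjusted, smallest adjusted p = 0.642), against 0.00638% of all genes. That median was 0.21 (38 positive) without the former mouse and 0.35 (39 positive) without the latter. When both terms were tested together with limma's F-test at 1 day, 0 of the 40 passed, with 15 at an unadjusted p below 0.05 and a smallest adjusted p of 0.358. Without the former mouse 0 passed with 9 at an unadjusted p below 0.05, and without the latter 0 passed with 15. At 5 days 0 passed for either term, and 0% of all genes passed. There 1 gene for genotype and 0 for sex had an unadjusted p below 0.05. At 1 day, the medians of smoke minus sham were 0.63 in βENaC females and -0.18 in βENaC males. In WT mice they were close, -0.07 in females and -0.05 in males. The exposure by sex term was fitted over both genotypes, so it does not show a sex difference within WT mice.

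Sex gave few calls. At 1 day, 2 of the 40 passed in limma's test, against 9.89% of all genes, Cdc20 higher and Mcm4 lower in males. Of all genes called for sex at 1 day, 79.1% were higher in males, a share that was 67.0% with each array centred on its median and 52.0% after quantile normalization. Cdc20 ran from 4.40 to 5.83 (median 4.86) in females and from 4.62 to 6.02 (median 5.30) in males. The ranges overlapped, but 18 of 20 males lay above the female median. Its coefficient was 0.42 (SE 0.12, limma adjusted p = 0.0145), and it was the 1 gene of the 40 that also exceeded 1.3-fold, against 0.651% of all genes higher in males.

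Mcm4, a subunit of the replicative helicase, ran from 7.34 to 7.81 (median 7.57) in females and from 7.13 to 7.70 (median 7.43) in males of the 1-day exposures. The difference was small beside that of Cdc20, but so was the spread, and 2 of 20 males lay above the female median. Its coefficient was -0.15 (SE 0.04, limma adjusted p = 0.0108). The other Mcm genes had coefficients between -0.11 and 0.03. Without the mouse with the highest thymocyte level Birc5 also passed, higher in males. Cdc20 and Mcm4 passed whichever of the 40 mice was left out and under each of the 9 other settings. Birc5 and the mitotic kinase Plk1 had coefficients of 0.28 each and did not pass (SE 0.11 each, limma adjusted p = 0.0927 and 0.115).

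The licensing gene Cdc6 had the lowest coefficient, -0.23 (SE 0.12, limma adjusted p = 0.232). Its range was 3.42 to 5.37 (median 3.76) in females and 3.19 to 4.18 (median 3.56) in males, and the value of 5.37 was that of 1 WT smoke female (replicate 1) whose average over the 40 genes was -0.37. The median over the 40 genes was 0.05 with 30 higher in males (27 with arrays centred and 25 after quantile normalization). At 5 days 34 were higher in males with a median of 0.13, and 0 passed (4 at an unadjusted p below 0.05), against 0.616% of all genes, 76.7% of those higher in males (87.5% with arrays centred). The largest coefficients there were those of Prc1 (0.35, SE 0.14, limma adjusted p = 0.316) and Ccna2 (0.28, SE 0.11, adjusted p = 0.289). Cdc20 had 0.20 and Mcm4 -0.04. For sex by duration, 0 of the 40 passed (1 at an unadjusted p below 0.05, smallest adjusted p = 0.409), against 0.654% of all genes.

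Further genes of the cell cycle, listed apart from the 40, gave the following counts for genotype. Rises are to be read against the 3.58% of all genes that rose at 1 day and the 4.85% that rose at 5 days. In either direction, 5.87% of all genes were called at 1 day and 10.2% at 5 days, so falls were also common over the array. At 1 day, 10 of 56 genes of mitosis and cytokinesis rose in βENaC mice and none fell, with a median coefficient of 0.21. Past 1.3-fold were Nek2, a centrosome kinase (0.55, SE 0.08, limma adjusted p = 1.09e-05), the condensin subunits Ncapg (0.43, adjusted p = 0.0135) and Ncapg2 (0.40, adjusted p = 0.00693), and Cep55, which acts in the final cut between daughter cells (0.40, adjusted p = 0.0355). Of 33 further replication genes 4 rose (Mcm10, Gins1, Ticrr and Tk1), with a median of 0.10. Of 28 regulators 4 rose, E2f7, E2f8, Cdk2 and Chek2, with E2f8, a repressor among the E2F factors, past 1.3-fold (0.44, SE 0.11, limma adjusted p = 0.00742). Of 14 inhibitors of cyclin-dependent kinases and other antiproliferative genes 0 changed, and of 19 genes of replication-coupled DNA repair Exo1 rose and Fancb fell. At 5 days, 5 of the 56 mitotic genes rose, 1 of 33 replication genes rose (Chaf1b), of the regulators Chek2 rose and Ccnd1 and Wee1 fell, of the inhibitors Gadd45a rose and Cdkn1c and Tob1 fell, and Fancb fell past 1.3-fold (-0.42, SE 0.09, limma adjusted p = 0.0014).

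With smoke, the calls in these lists came in both directions, and differences between lists were not tested. At 1 day, where 9.45% of all genes were called, the regulators gave more calls than any other of these lists. Of them, 7 of 28 rose (E2f4, E2f5, Lin9, Lin54, Rb1, Rbl2 and Cdk2) and 1 fell (Rbl1). The inhibitor Cdkn1a rose by 0.48 (SE 0.09, limma adjusted p = 4.74e-04), and Cdkn1b and Gadd45a also rose, 3 of 14 in all. Of the mitotic genes 1 of 56 changed, Nek2, which fell by 0.46 (limma adjusted p = 1.43e-04). Of the replication genes 4 of 33 fell (Pola1, Chaf1a, Chaf1b and Dut) and Pole2 rose, and of 19 repair genes Brca2, Blm and Fanca fell. At 5 days, where 6.53% of all genes were called, 4 of the 28 regulators rose (E2f2, Lin54, Rbl2 and Wee1) and 2 fell (E2f1 and Ccnd2). Of the mitotic genes 2 of 56 fell, the centromeric histone Cenpa and the condensin subunit Ncaph, and 0 rose, while the replication inhibitor Gmnn and the kinase inhibitors Cdkn1b and Cdkn1c rose and 0 of 19 repair genes changed.

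For sex at 1 day, where 9.89% of all genes were called, Cdkn1a was higher in males (0.40, SE 0.09, limma adjusted p = 0.00337), as were 2 more of the 14 inhibitors, Cdkn2b and Gadd45b. Of the 28 regulators, Ccnd1, Ccnd3 and Cdk2 were higher and Rbl1 and Wee1 lower in males. Of the 33 replication genes Cdc7 and Pola1 were lower, of the 19 repair genes Brca2 and Blm were lower, and of the 56 mitotic genes Troap was higher. At 5 days of exposure 0 genes of these 5 lists differed between the sexes.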

How the data were processed

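Whole right lung RNA was hybridised to 1 Affymetrix moGene2.1 array per mouse. The values the authors deposited are log2 intensities from RMA, in which the background is corrected, probes are adjusted for their GC content and sequence, arrays are quantile normalized and the probes of a gene are combined by median polish. The submitters' processing notes name Affymetrix Expression Console 1.4 and Partek 6.6. They had removed 1 array as mislabelled. All columns were used as deposited. Arrays carry no counts, and signal over background was not analysed here. All arrays were run on 1 plate.

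Groups came from titles. For each duration a linear model with exposure, genotype and sex was fitted to all 31350 entries with limma 3.58.1 (lmFit and eBayes, R 4.3.3, version 1.17.8 of data.table), and p-values were adjusted over all entries by Benjamini-Hochberg. A call is an adjusted p below 0.05, and the fold threshold is 1.3. Interaction terms with exposure were added for genotype and sex, and terms with duration were fitted over all mice. Coefficients are smoke minus sham, βENaC minus WT and male minus female, and SE is limma's. Symbols came from the paper's tables or from RefSeq (GRCm38.p6) by transcript, for 21837 entries. Figures used Python 3.11.15 and matplotlib 3.10.9. The fits were tested on simulated data.

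The 40 genes and the lists of other genes were chosen with earlier results of these data known, and no list carries a test. Named genes were the 40, with full statistics for the 5 largest coefficients and those past both thresholds in each comparison, list genes past both thresholds, the 5 others most like Mki67 and Scnn1b. Other genes are named as calls that make up a count. Alternatives were an ordinary linear model, array weights, eBayes with trend and robust, 1 fit over all mice, median centring, quantile normalization, omission of the 30% of entries with the lowest mean, 1 entry per symbol, the replicate number as a block, and omission of each mouse.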

Additional observations from a re-analysis of the deposited data

Results flagged for a closer look

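In 12 of 240 tests of a group of 4 to 6 mice, over 15 values, the highest or lowest mouse lay farther from its nearest neighbour than Dixon's limit allows, and chance alone gives about 1 in 20. Of these, 4 belonged to a WT smoke female of the 1-day exposures (replicate 5), which was high for the mean of the 40 genes (0.18, next -0.30), Mki67 (7.66, next 6.66), Kif11 (6.09, next 5.32) and Tpx2 (6.31, next 5.56). This mouse also had the highest erythroid level of all mice.

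Bub1 was high in a βENaC smoke female of the 1-day exposures (replicate 5, 5.97, next 5.26). Bub1b was high in a βENaC smoke female of the 5-day exposures (replicate 3, 5.92, next 5.34), low in a WT sham male of the 1-day exposures (replicate 1, 5.00, next 5.10) and low in a WT smoke female of the 5-day exposures (replicate 1, 4.99, next 5.42). Melk was high in a WT sham female of the 5-day exposures (replicate 4, 4.63), the mouse that was also high for Mcm4 (7.84, next 7.55). Mcm4 was low in a WT smoke female of the 5-day exposures (replicate 3, 7.44, next 7.58) and high in a WT smoke male (replicate 4, 7.59, next 7.44). No explanation was tested for these mice.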

How the results depend on the processing

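No coefficient of a called gene changed sign under any setting. Of the counts of called genes, those with the ordinary linear model moved for smoke at 5 days from 2 to 1, for genotype at 1 day from 9 to 2 (past 1.3-fold from 6 to 2) and for genotype at 5 days from 4 to 2. Array weights gave 4 for smoke at 5 days and 2 for genotype at 5 days, 1 fit over all mice gave 1 for smoke at 5 days, and quantile normalization gave 3 past 1.3-fold for genotype at 1 day. Each of the 40 genes had 1 entry, so the mean over entries of a gene gave no other value. The calls of Bub1 (smoke, 5 days), Bub1b and Birc5 (genotype, 1 day), Bub1b and Melk (genotype, 5 days) and Cdc20 and Mcm4 (sex, 1 day) held under all 9 other settings.

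When single mice were left out, the count for genotype at 1 day ran from 2 to 18 (past 1.3-fold from 0 to 13), for genotype at 5 days from 2 to 5 (0 to 1), for smoke at 5 days from 1 to 5 (0 to 2) and for sex at 1 day from 2 to 4 (1 in each case past 1.3-fold). The 18 calls came without a WT sham female (replicate 5), 16 without a βENaC sham female (replicate 4), and the 5 for smoke without a βENaC smoke female of the 5-day exposures (replicate 3). The median coefficients ran from 0.24 to 0.32 for genotype at 1 day, 0.13 to 0.19 for genotype at 5 days, 0.04 to 0.11 for smoke at 1 day, -0.17 to -0.12 for smoke at 5 days, 0.01 to 0.08 for sex at 1 day and 0.10 to 0.15 for sex at 5 days. Every count of 0 at the adjusted p alone (smoke at 1 day, sex at 5 days and the tests of interactions and of duration) was 0 without any single mouse. The cause of these changes was not tested.

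Mice with the same replicate number in different groups were on average no more alike than others (mean correlation of deviations 0.012 over 266 pairs against -0.003 for other numbers). Single pairs ran from -0.28 to 0.54 with the same number and from -0.43 to 0.35 with other numbers. The numbers thus showed no pairing on average, which does not exclude that some mice were related. Litters were not in the labels used, so the fits took no account of them. With the replicate block, 7 genes passed for genotype at 1 day (4 past 1.3-fold), 4 for genotype at 5 days, 2 for smoke at 5 days and 2 for sex at 1 day. Ndc80 (smoke, 5 days), Cdk1 and Cenpe (genotype, 1 day) lost their calls.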
